A study of Mus musculus with 6 samples.

Results

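The genes described here are 10 factors by which intestinal epithelium attracts, keeps or restrains intraepithelial lymphocytes, the T cells that sit between epithelial cells: Btnl1, Btnl2, Btnl4, Btnl6, Il15, Il18, Il7, Ccl25, Ccl28 and Tnfrsf14. They were chosen by name and matched on the gene symbol, and all 10 were found among the 55331 genes listed. The libraries came from crypt cells of mouse small intestine, taken from C57BL/6 mice aged 60 days after the villi had been scraped away. The 3 WT libraries had the genotype Ptbp1f/f, with floxed Ptbp1 alleles and no Cre. The 3 PTBP1_KO libraries had the genotype Ptbp1f/f;Vil-creER+/-, in which villin regulatory sequence drives a tamoxifen-activated Cre in the intestinal epithelium. Every mouse in both groups was given tamoxifen at 100 mg/kg in 2 injections, and tissue was taken 20 h after the last. Loss of Ptbp1, which encodes an RNA-binding regulator of splicing, and the presence of the Cre itself cannot be told apart in this design.

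Butyrophilin-like proteins are cell surface proteins of the immunoglobulin superfamily. On mouse enterocytes, a pair formed by Btnl1 and Btnl6 is known to hold and shape the Vγ7 population of gut γδ T cells. Interleukins 15 and 7 are survival cytokines for lymphocytes, and interleukin 18 is stored in epithelium as a precursor that caspase-1 cleaves. CCL25 and CCL28 are the epithelial chemokines of small intestine and of mucosae more widely. Tnfrsf14 encodes HVEM, an epithelial receptor that binds BTLA, CD160 and LIGHT on lymphocytes.

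None of the 10 genes differed between PTBP1_KO and WT at q < 0.05 in the authors' deposited Cuffdiff table, against 0.537% of the 15460 genes tested. By direction, 0.388% of tested genes were called higher and 0.149% lower in PTBP1_KO. All 10 had been tested, all had q = 0.9998, and 0 had an unadjusted p below 0.05, which 4.35% of tested genes had. The listed level was higher in PTBP1_KO for 8 of them and lower for 2, and 54.7% of all tested genes were higher. The median log2((PTBP1_KO + 1)/(WT + 1)) was 0.18 for the 10 genes and 0.02 for all tested genes. The gene table has 1 FPKM value per group (a fragment count scaled by transcript length and by library size), so no spread between libraries and no interval for a difference can be given. A p that misses the threshold does not show that the levels were equal.

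**Figure D1:**
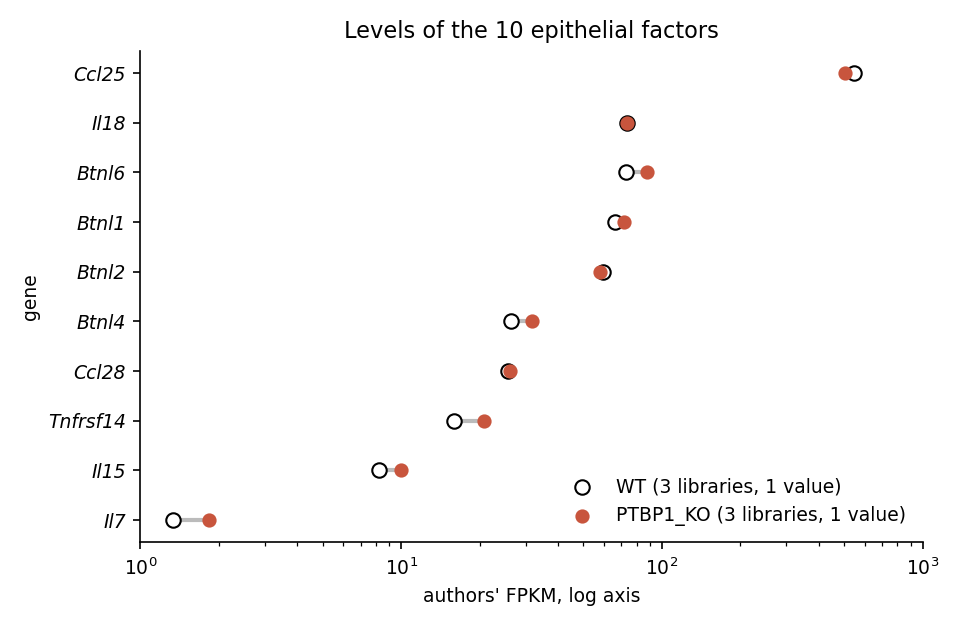
Level of each of the 10 genes as the authors' FPKM on a log axis, with an open circle for WT and a filled circle for PTBP1_KO, each a single value for 3 libraries. The levels run from 1.34 FPKM for Il7 to 547 FPKM for Ccl25 in WT, and the circles of a gene lie close together.

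The sample type was checked on its markers. Epcam, an epithelial adhesion protein, was listed at 1220 FPKM in WT and at 1340 FPKM in PTBP1_KO, and Cdh1, encoding E-cadherin, the ligand by which the integrin CD103 keeps lymphocytes in the epithelium, at 227 and 253 FPKM. T-cell genes were also present, with Gzma at 54.9 FPKM in WT, so the libraries held lymphocyte RNA beside epithelial RNA. Villus enterocyte genes were abundant although the villi had been scraped away, with Apoa1 at 2580 FPKM and Fabp1 at 2551 FPKM in WT, above Olfm4, the highest crypt marker, at 618 FPKM, and levels of different genes do not give shares of cells. Ptbp1 itself was listed at 230.0 FPKM in WT and at 122.8 FPKM in PTBP1_KO, which is 53.4% of the WT level, with q = 0.0125 in the authors' deposited Cuffdiff table.

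The order of the 10 levels was nearly the same in both groups. From high to low in WT it was Ccl25, Il18, Btnl6, Btnl1, Btnl2, Btnl4, Ccl28, Tnfrsf14, Il15 and Il7. In PTBP1_KO only Il18 and Btnl6 exchanged places, and the other 8 kept their rank. FPKM is scaled by transcript length, so levels of different genes can be set side by side, but with 1 value per group it cannot be said which neighbours differ beyond their spread.

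The 4 butyrophilin-like genes lie together on chromosome 17 (mm10). Btnl2 (34354822 to 34369495) and Btnl1 (34377132 to 34386028) are on the plus strand. Btnl4 (34466562 to 34477318) and Btnl6 (34507804 to 34517352) are on the minus strand. Btnl1, Btnl4 and Btnl6 share a layout of coding exons, with 1 exon of 21 nt followed by 3 exons of 27 nt. Btnl2 has an exon of the same length, 21 nt, in the splicing tables. These short exons are shown because so much of the splicing data on this family falls on them. They were read from GENCODE M21 transcripts, 5′ to 3′, and in the first set capitals mark bases that are the same in Btnl1, Btnl4 and Btnl6 (for Btnl2, bases that match all of the others).
Btnl1 exon 6: atGacCTCcaGGccGAcCtaG
Btnl4 exon 5: gcGcaCTCatGGtgGAgCgtG
Btnl6 exon 5: atGcaCTCatGGtgGAgCttG
Btnl2 exon 5: agaggCTCcaGaccGAaCtgG
The 27 nt exons follow in the same 3 genes, again with shared bases in capitals.
Btnl1 exon 7: aTCggAGGAAgGCgctgTACAaaGaAG
Btnl4 exon 6: aTCgaAGGAAaGCagctTACAggGcAG
Btnl6 exon 6: cTCaaAGGAAgGCagctTACAggGcAG
Btnl1 exon 8: acTGGAaGAAGGCCttGCTgTAccCtG
Btnl4 exon 7: ctTGGAaGAAGGCCcaGCTcTAtgCaG
Btnl6 exon 7: ccTGGAgGAAGGCCcaGCTgTAtgCaG
Btnl1 exon 9: AcTGGaGgAAGGAgCtgTTCcAGGagg
Btnl4 exon 8: AtTGGcGcAAGGAgCacTTCgAGGcct
Btnl6 exon 8: AtTGGcGcAAGGAaCaaTTCcAGGcct
Of the 21 bases of the first exon 10 were shared by the 3 genes, and 16, 18 and 17 of 27 bases in the exons that follow. With Btnl2 included, 8 of the 21 bases were shared. Over the whole coding sequence Btnl4 and Btnl6 were identical at 90.0% of aligned bases, whereas the other 5 pairs ranged from 58.9% to 62.8%.

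Btnl1 was listed at 66.2 FPKM in WT and at 71.6 FPKM in PTBP1_KO, a log2 fold change of 0.11 in the authors' deposited table (p = 0.455). Its partner Btnl6 was listed at 72.9 FPKM in WT and at 88.0 FPKM in PTBP1_KO, with a log2 fold change of 0.27 and the smallest p of the 10 genes, 0.0668, in the authors' deposited table. The partners thus stood at similar levels in both groups, with a ratio of Btnl1 to Btnl6 of 0.908 in WT and 0.814 in PTBP1_KO. Btnl4 was listed at 26.4 FPKM in WT and at 31.7 FPKM in PTBP1_KO, with a log2 fold change of 0.26 in the authors' deposited table (p = 0.0950). Btnl2, which is known as an inhibitor of T-cell activation, was listed at 59.5 FPKM in WT and at 57.8 FPKM in PTBP1_KO, with a log2 fold change of -0.04 in the authors' deposited table (p = 0.784). Btnl4 and Btnl6 were the only 2 of the 10 genes with p below 0.1, which 7.14% of tested genes had.

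Values of Btnl4 and Btnl6 are uncertain, because near-identical copies can share reads. Of the 50-base windows in Btnl4 transcripts 325 of 2328 (14.0%) also occurred in a transcript of another gene, as did 112 of 1702 (6.58%) in Btnl6, and the shared genes were each other and the pseudogenes Btnl5-ps and Btnl7-ps, with Entpd4 and Entpd4b also sharing windows with Btnl4. For Btnl1 and Btnl2 the number was 0. Btnl5-ps was itself listed at 89.4 FPKM in WT and at 106 FPKM in PTBP1_KO, above each of the 4 protein-coding relatives, and Btnl7-ps at 11.7 and 15.5 FPKM (p = 0.281 and 0.0203 in the authors' deposited table). Both pseudogenes were named after their values were seen. How reads that map to several copies were assigned is not given in the sources used here. The 5 further butyrophilin genes looked up (Btn1a1, Btn2a2, Btnl9, Btnl10 and Mog) were too low to be tested by the authors and summed to 0.173 FPKM in WT and at 0.166 FPKM in PTBP1_KO, far below the 225 and 249 FPKM of the 4 genes on chromosome 17 together.

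Among the cytokines, Il18 (chromosome 9, 50554827 to 50581840, plus strand) was listed at 73.5 FPKM in both groups, with p = 0.996 in the authors' deposited table. Il15 (chromosome 8, 82331632 to 82403222, minus strand) was listed at 8.21 FPKM in WT and at 9.99 FPKM in PTBP1_KO, with a log2 fold change of 0.28 in the authors' deposited table (p = 0.333). Il7 (chromosome 3, 7569994 to 7613760, minus strand) was the lowest of the 10 genes, at 1.34 FPKM in WT and at 1.83 FPKM in PTBP1_KO. Its log2 fold change of 0.45 was the largest of the 10 in size (p = 0.133 in the authors' deposited table), at a level where fold changes scatter widely: 19.8% of tested genes within 2-fold of its mean FPKM had a larger one. Il18 RNA stood 8.95-fold above Il15 RNA in WT and 7.36-fold above it in PTBP1_KO.

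The 2 chemokines were far apart in level. Ccl25 (chromosome 8, 4325210 to 4360020, plus strand), which draws CCR9-bearing lymphocytes to the small intestine, was listed at 547 FPKM in WT and at 506 FPKM in PTBP1_KO, above 98.8% of tested genes. Its log2 fold change was -0.11 (p = 0.567 in the authors' deposited table). Ccl28 (chromosome 13, 119623819 to 119654359, plus strand), whose receptor CCR10 is borne by IgA-secreting plasma cells, was listed at 25.7 FPKM in WT and at 26.05 FPKM in PTBP1_KO (p = 0.899 in the authors' deposited table). Ccl25 exceeded Ccl28 by 21.3-fold in WT and 19.4-fold in PTBP1_KO. Exons of Ccl25 overlap those of Elavl1 on the opposite strand, which was listed at 39.0 FPKM in WT and at 40.5 FPKM in PTBP1_KO. The library kit keeps strand, but whether the counting used it is not given in the sources used here.

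Tnfrsf14 (chromosome 4, 154921933 to 154928563, minus strand) was listed at 16.0 FPKM in WT and at 20.8 FPKM in PTBP1_KO. The log2 fold change was 0.38 in the authors' deposited table (p = 0.178). Among tested genes within 2-fold of its mean FPKM, 3.70% had a larger fold change in size, the smallest such share of the 10 genes. HVEM is expressed by lymphocytes as well as by epithelium. Of the 50-base windows in Tnfrsf14 transcripts 69 of 1530 (4.51%) also occurred in transcripts of other genes, 290 in all, so a part of its reads could be shared.

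**Figure D2:**
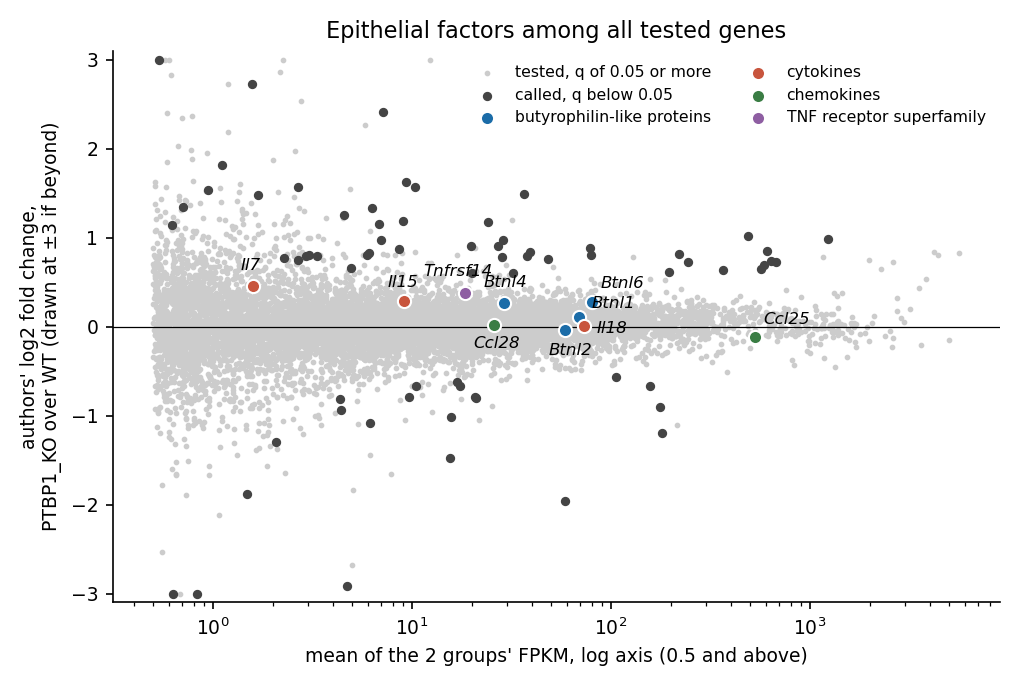
The authors' log2 fold change of PTBP1_KO over WT against the mean FPKM of the groups on a log axis, for tested genes of at least 0.5 FPKM (grey), genes called at q < 0.05 (dark) and the 10 genes by role (coloured and named). The largest of the 10 in size, Il7 at 0.45, and the others lie inside the grey cloud, whereas called genes of at least 1 FPKM begin at 0.57.

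The sizes of the changes called in this table bear on these values, although the smallest one called is not a fixed limit. Among the 12337 tested genes of at least 1 FPKM in the higher group, 68 were called, and the smallest log2 fold change among them was 0.57 in size. The largest of the 10 genes, 0.45, lay under it. At the same level of at least 1 FPKM, the smallest change with an unadjusted p below 0.05 in the authors' deposited Cuffdiff table was 0.29 in size. Around the level of each of the 10 genes, taken as tested genes within 2-fold of its mean FPKM, the smallest change called ranged from 0.57 to 0.75, so differences as small as those listed for these genes were not called for any gene of like abundance.

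Some genes of the lymphocytes themselves passed the test in the same table, in which 0.388% of all tested genes were called higher. Of 15 tested genes of intraepithelial T cells 4 rose, namely Cd8a, from 4.30 to 7.52 FPKM, Gzma, from 54.9 to 101 FPKM, Gzmb, from 18.9 to 35.3 FPKM, and Cd7, from 19.5 to 38.1 FPKM, each with q = 0.0125 in the authors' deposited Cuffdiff table. Cd8a encodes a chain of the CD8 co-receptor, Gzma and Gzmb encode granzymes of cytotoxic granules, and Cd7 a surface protein of T and NK cells. An unadjusted p below 0.05 was listed in the authors' deposited Cuffdiff table for 10 of the 15, all higher in PTBP1_KO, among them Cd3g (9.11 and 15.0 FPKM, p = 0.00055), Itgae, encoding the CD103 chain that binds E-cadherin (1.71 and 3.57 FPKM, p = 0.0268), and Ptprc (5.96 and 9.26 FPKM, p = 0.0230). The median log2 ratio of the list was 0.56, against 0.18 for the epithelial factors and 0.02 for all tested genes. The difference between the lists was not tested. In bulk RNA, more cells of a type and more RNA per cell cannot be told apart.

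Receptors by which lymphocytes read the 10 factors were low in the libraries. Of 12 such genes 9 were tested, and the highest, Il2rg, was listed at 3.03 FPKM in WT. None passed q < 0.05 in the authors' deposited Cuffdiff table, and 3 had an unadjusted p below 0.05, all listed higher in PTBP1_KO. In the authors' deposited Cuffdiff table these were Il2rb, encoding the β chain through which IL-15 signals (0.999 and 1.67 FPKM, p = 0.00270), Il2rg, encoding the common γ chain shared by the receptors for IL-15 and IL-7 (3.03 and 4.89 FPKM, p = 0.00615), and Tnfsf14, encoding LIGHT (0.121 and 0.275 FPKM, p = 0.0240). Cd160, another ligand of HVEM, was listed at 1.86 FPKM in WT and at 3.22 FPKM in PTBP1_KO (p = 0.587 in the authors' deposited table). All 9 tested receptors were listed higher in PTBP1_KO, with a median log2 ratio of 0.19. That median depends on the low levels of these genes: it was 0.67 with a pseudocount of 0.1 FPKM and 0.48 for the 4 receptors of at least 1 FPKM. These receptors and the T-cell list above are largely genes of the same cells, so they are not independent.

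Genes around the cytokines were listed on both sides of no change, 7 higher and 4 lower in PTBP1_KO. Of 11 tested genes of IL-15, IL-18 and IL-7 processing and signalling 0 passed q < 0.05 in the authors' deposited Cuffdiff table, and the median log2 ratio was 0.01. Casp1, the protease that matures IL-18, was listed at 136 FPKM in both groups, Nlrp6, an inflammasome sensor of the epithelium, at 86.6 and 86.9 FPKM, and the adaptor Pycard at 178 and 184 FPKM. Lower-expressed genes of the list were mixed, and those given next were named after their values were seen. Il18bp, encoding a decoy receptor for IL-18, lay further apart (5.68 and 7.48 FPKM). So did Jak3, encoding a kinase bound to the common γ chain (4.96 and 6.01 FPKM). Stat5a was listed lower in PTBP1_KO, with a log2 ratio of -0.13. Il15ra (13.5 and 13.4 FPKM) and Stat5b (3.91 and 4.12 FPKM) lay close together. The single gene with an unadjusted p below 0.05 was Tslp, an epithelial cytokine related to IL-7, at 0.345 FPKM in WT and at 0.156 FPKM in PTBP1_KO (p = 0.0496 in the authors' deposited Cuffdiff table). Of 9 transcription factors of the gut epithelium 0 passed q < 0.05, and 0 had an unadjusted p below 0.05, in the authors' deposited Cuffdiff table. Hnf4a was listed at 219 and 211 FPKM, Cdx1 at 103 and 101 FPKM, and Irf1, an interferon-induced factor, at 114 and 119 FPKM.

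Of the other epithelial ligands for lymphocytes, 0 of 14 tested genes passed q < 0.05 in the authors' deposited Cuffdiff table and 2 had an unadjusted p below 0.05. Ccl20, the chemokine that draws CCR6-bearing cells, was listed at 12.4 FPKM in WT and at 6.00 FPKM in PTBP1_KO, with a log2 fold change of -1.05 (p = 0.00060, q = 0.0901 in the authors' deposited Cuffdiff table). Il33, an alarmin of the IL-1 family like Il18, was listed at 5.74 FPKM in WT and at 4.08 FPKM in PTBP1_KO (p = 0.0158 in the authors' deposited Cuffdiff table). The median of this list was 0.03, and H2-Q2, a class I gene of the Qa region, stood at 239 and 252 FPKM.

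**Figure D3:**
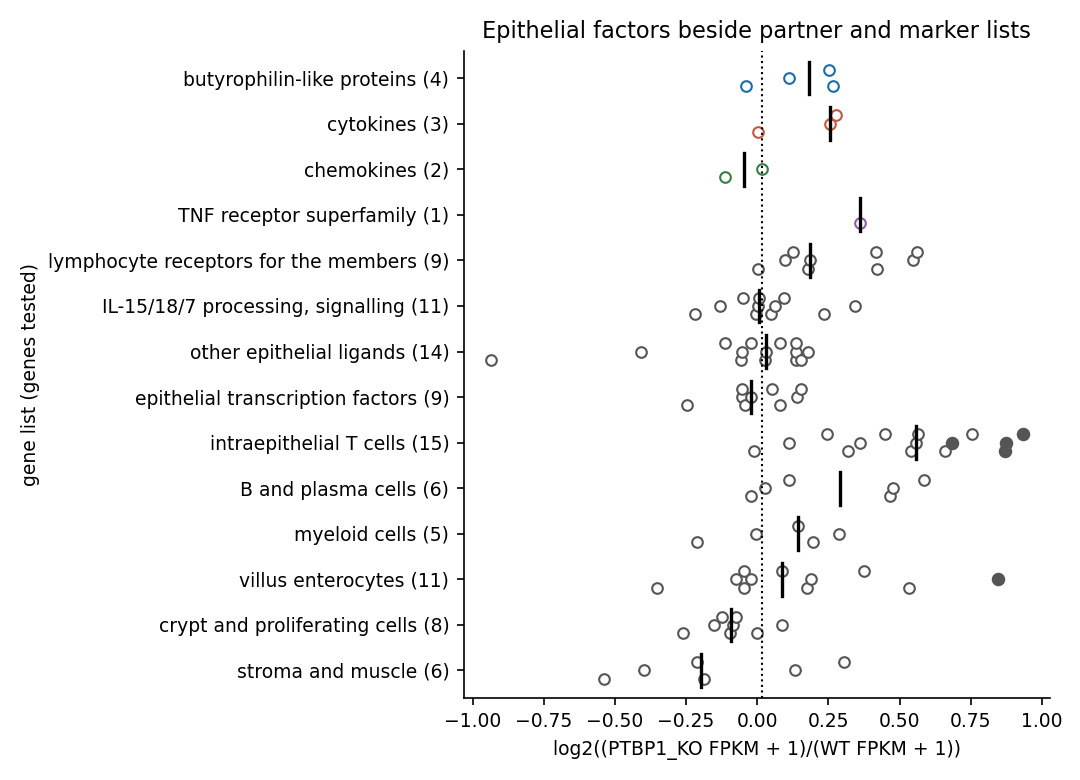
Each circle is a tested gene, placed by log2((PTBP1_KO FPKM + 1)/(WT FPKM + 1)), in the 10 epithelial factors by role (coloured) and in partner and marker lists (grey), filled where q < 0.05, with a bar at each list's median and a dotted line at the median of all tested genes (0.02). Filled circles appear among intraepithelial T cells (4) and villus enterocytes (1) and in no list of epithelial factors.

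Markers of the cells that could carry the 10 factors had the following levels, and their part in the listed levels was not tested. The summed level of 12 villus enterocyte markers was 10258 FPKM in WT and 10558 FPKM in PTBP1_KO. That sum includes Sis, for which the authors' test failed (390 and 335 FPKM). Of the 11 tested, 6 were listed higher and 5 lower, among the lower Fabp2 at 1318 and 1033 FPKM (p = 0.0851 in the authors' deposited table). Only 1 was called, Nt5e, an ecto-enzyme that makes adenosine, from 4.71 to 9.26 FPKM (q = 0.0125 in the authors' deposited Cuffdiff table). Ada, which breaks adenosine down, was listed at 64.6 and 93.9 FPKM (p = 0.00115, q = 0.143 in the authors' deposited Cuffdiff table). The 8 crypt and proliferation markers summed to 982 and 921 FPKM, with 0 called and 0 at an unadjusted p below 0.05. The 15 T-cell genes summed to 182 FPKM in WT and at 300 FPKM in PTBP1_KO. The 6 B and plasma cell markers summed to 19.7 and 26.2 FPKM, with 0 called and 2 at an unadjusted p below 0.05, Cd79a (5.49 and 7.97 FPKM) and Jchain (4.404 and 7.10 FPKM). The 6 myeloid markers, of cells that also make IL-15 and IL-18, summed to 10.003 and 10.4 FPKM, and the 7 stromal and muscle markers to 7.95 and 7.93 FPKM. In the stromal list 0 were called, but 4 had an unadjusted p below 0.05 in the authors' deposited Cuffdiff table, all listed lower in PTBP1_KO: the collagen genes Col1a1, Col1a2 and Col3a1, and Dcn, the highest of them, at 1.51 and 0.723 FPKM (p = 0.00300). Over all tested genes 4.35% had an unadjusted p below 0.05. Of the 6 stromal genes tested 4 were listed lower and 2 higher. Vim, the highest of the list, was among the higher, at 4.90 and 6.28 FPKM (p = 0.158 in the authors' deposited table). No gene of these 6 marker lists was listed at 0 in both groups, and 1, Trgc1, had no match.

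Splicing of the 10 genes was read from the authors' tables, 1 for each of 5 kinds of event. Each table sets 3 libraries (the first set) against the other 3 (the second set), and the headers give no genotype for either, so no direction by genotype can be stated. An inclusion level is the length-corrected share of reads that include a region, and a difference is the first set minus the second. To count as changed, an event needed an FDR under 0.05 in the authors' table, a difference of at least 0.1 in size and at least 20 reads per library on average. The 10 genes had 85 of the 61715 events. Of the 85, 64 were skipped exons, 14 were pairs of mutually exclusive exons, 5 were choices of 5′ splice site and 2 of 3′ splice site, with 0 retained introns. Together 76 had enough reads, and every gene had at least 1 such event.

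No event of the 10 genes counted as changed, 0 of 76, against 1.56% of all 53918 events with enough reads. By kind, it was 0 of 59 skipped exons against 1.68% of all, 0 of 14 mutually exclusive pairs against 1.02%, 0 of 1 choice of 5′ splice site against 1.57% and 0 of 2 choices of 3′ splice site against 1.1%. Retained introns, of which 2.06% were called, held none of the 10 genes. An FDR below 0.05 without a minimum difference was listed for 1 of the 76, against 3.76% of all, and an unadjusted p below 0.05 for 6 of the 76, against 10.3% of all. In 58 of the 76 events the listed difference was under 0.02 in size, and in 3 it was at least 0.1. The inclusion levels of the sets did not overlap in 5 of the 76, against 8.52% of all events with enough reads.

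**Figure D4:**
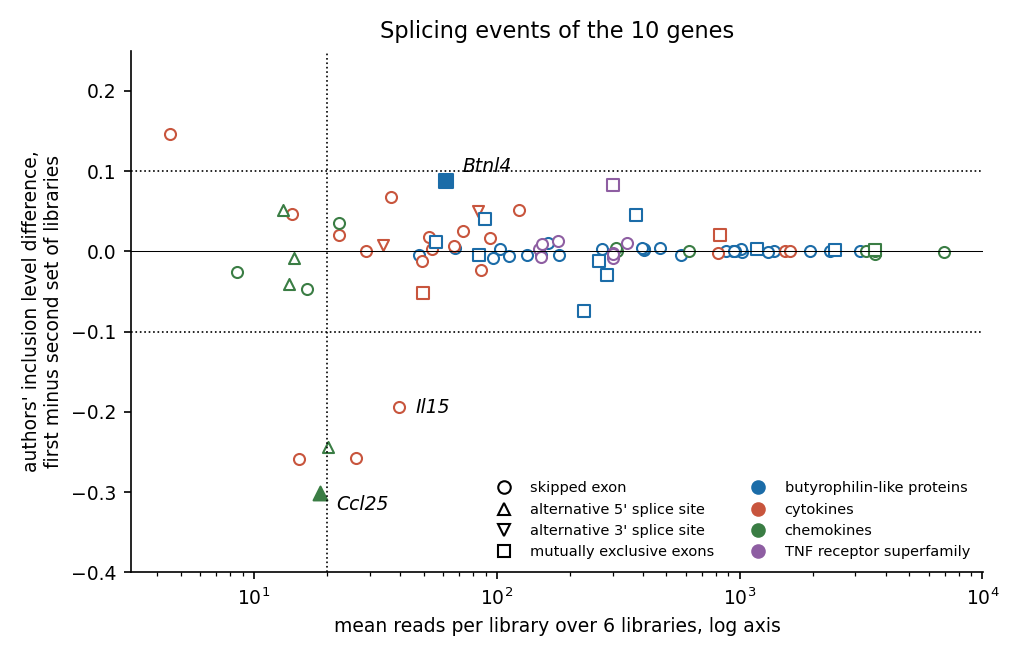
Each symbol is a splicing event of the 10 genes, placed by its mean reads per library on a log axis and the authors' inclusion level difference, with the shape giving the event type and the colour the role of the gene. Symbols are filled where the FDR was below 0.05 (Btnl4 and Ccl25), and dotted lines mark 20 reads and a difference of 0.1, which neither filled symbol passes together.

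The short exons of the butyrophilin-like family were almost always included. Over the 13 exons printed above, skipping was listed in 20 events, and the FDR was 1 in each. Taking for each exon the event with most reads, inclusion over all 6 libraries ranged from 98.2% for Btnl4 exon 7 to 99.96% for Btnl1 exon 6. Summed over these 13 events, the read counts were 59242 for inclusion and 157 for skipping. A read that crosses several of these exons may have been counted in more than 1 event. The lowest inclusion level of any library was 0.940, and the largest difference between the sets was 0.011. For each exon, the listed skipping was thus under 2% of length-corrected reads. For Btnl1 exon 7 the listed event passes over exons 8 and 9 too, and for Btnl4 exon 7 the listed events pass over exon 8 too. Skipping of Btnl1 exon 7 or Btnl4 exon 7 alone was therefore not listed.

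Pairs of these exons are also listed as mutually exclusive, with middle values that must be read beside the skipping data. The level of a pair is the share of the exon that comes first in the transcript, which the reads of matching skipped exon events bore out for 6 of the 6 pairs that had one. For Btnl1 exons 8 and 9 the mutually exclusive table gave the share of exon 8 as 0.580, 0.539 and 0.584 in the first set and 0.616, 0.561 and 0.563 in the second, while the skipped exon table gave an inclusion of 99.9% for exon 8 and 99.4% for exon 9. The sets overlapped and the difference was -0.012 (p = 0.720 in the authors' deposited table). For Btnl6 exons 7 and 8 the share of exon 7 was 0.396, 0.402 and 0.366 in the first set and 0.393, 0.519 and 0.475 in the second, a difference of -0.074 (p = 0.0574, FDR = 0.438 in the authors' deposited table). How reads that cross several such short exons were assigned is not given in the sources used here.

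The event with the smallest p of all was such a pair in Btnl4, exon 6 (34472257 to 34472283) against exon 7 (34470979 to 34471005), when joined to the last exon of a non-coding transcript at the 3′ end of the gene (34466562 to 34466847). The share of exon 6 was 0.957, 0.982 and 0.955 in the first set and 0.912, 0.938 and 0.781 in the second, so the sets did not overlap, with 1 library of the second set well below the rest. The difference of 0.088 had p = 0.00036 and FDR = 0.0197 in the authors' deposited table, and it missed the minimum of 0.1. Reads for exon 7, the lesser form, were 3, 1 and 3 in the first set and 5, 3 and 16 in the second, so 16 of 31 came from that library, and without it the difference was 0.040. The same pair joined to another downstream exon (34469042 to 34469778) had a difference of 0.012 and an FDR of 1 in the authors' deposited table. For Btnl2, the event with the smallest p was a pair of its exons of 282 and 21 nt, with a difference of 0.003 (p = 0.901 in the authors' deposited table).

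Ccl25 had the largest difference of the 85 events. The event uses an alternative 5′ splice site at the end of a coding exon of 137 nt (chromosome 8, 4327757 to 4327893), and the longer form holds 43 nt more than the shorter, a length that is not a multiple of 3. The added segment is shown because both Ccl25 events discussed here turn on it, and it opens with gt, the usual first letters of an intron, where the shorter form ends.
Ccl25 added segment, chr8:4327851-4327893, plus strand: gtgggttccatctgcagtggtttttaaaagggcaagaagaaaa
In the event with the exon at 4353883 to 4354000 as the next exon, the listed reads for the longer form were 5, 11 and 21 in the first set and 16, 13 and 16 in the second. Reads joining the longer form directly to that exon were only 2, 0 and 2 in the first set and 2, 0 and 0 in the second. Most reads counted for the longer form were therefore not such joins. The listed inclusion levels were 0.562, 0.485 and 0.595 in the first set and 0.711, 0.909 and 0.925 in the second. The sets did not overlap, and the difference of -0.301 had p = 0.00125 and FDR = 0.0297 in the authors' deposited table. This event had a mean of 18.7 reads per library and 8 in the lowest, below the minimum of 20, and its naming here followed sight of its values. Over all events without a read minimum, 1.88% passed the same FDR and difference. The event with the smallest p among those with enough reads has the exon at 4349772 to 4349894 as the next exon. Its levels were 0.435, 0.395 and 0.574 against 0.782, 0.642 and 0.711, a difference of -0.244 with FDR = 0.197 in the authors' deposited table. Direct joins of the longer form to this exon were 0, 0 and 2 in the first set and 0, 1 and 0 in the second. These events count nearly the same reads for the longer form and are not independent. They rest on few reads, 3 to 21 per library for the longer form, whereas the exon at 4349772 to 4349894 was listed with a mean of 3602 reads per library, an inclusion of 99.9% and a difference of 0.

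Il15 had the most events of the 10 genes, 16, of which 15 had enough reads and a median of 51.0 reads per library over all of them. Transcripts of Il15 are known to differ in their first exons and in the signal peptide they encode. The event with the smallest p was skipping of an exon near the 5′ end (82402290 to 82402404). This exon is annotated in a non-coding transcript and overlaps a longer exon (82402300 to 82402570). Its inclusion levels were 0.658, 0.600 and 0.527 in the first set and 0.852, 0.788 and 0.727 in the second. The sets did not overlap, the difference was -0.194, and the authors' deposited table gave p = 0.0113 and FDR = 0.188, which did not pass. For the same exon joined to another upstream exon (82402739 to 82402873), named after its values were seen, the difference had the opposite sign, 0.068 (FDR = 1 in the authors' deposited table). Its levels were 0.816, 0.809 and 0.859 in the first set and 0.796, 0.750 and 0.735 in the second, again without overlap, so the exon had no single direction. An exon of 135 nt beside it (82402739 to 82402873), named after its values were seen, had a difference of -0.258 with FDR = 0.514 in the authors' deposited table, and the sets overlapped. The events with differences of -0.194 and -0.258 count the same skipping reads and are not independent. Joined instead to the exon at 82402290 to 82402404, the same exon of 135 nt had a difference of 0.001 (p = 0.788 in the authors' deposited table).

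Further along Il15, 2 choices affect the encoded protein, and their sequences are shown for that reason. A cassette exon of 78 nt carries an in-frame stop codon (capitals) in the transcript that GENCODE marks for nonsense-mediated decay. An alternative 3′ splice site adds or removes 48 nt of a coding exon.
Il15 cassette exon, chr8:82343959-82344036, minus strand: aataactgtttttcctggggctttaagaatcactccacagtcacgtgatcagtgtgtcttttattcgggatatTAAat
Il15 alternative segment, chr8:82334559-82334606, minus strand: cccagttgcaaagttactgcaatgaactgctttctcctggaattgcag
The cassette exon was included in 23.3% of length-corrected reads over the 6 libraries, with 0.237, 0.287 and 0.262 in the first set and 0.158, 0.258 and 0.217 in the second. The sets overlapped, with a difference of 0.051 and p = 0.120 in the authors' deposited table. The segment of 48 nt was present in 90.2%, with 0.882, 0.983 and 0.921 in the first set and 0.842, 0.919 and 0.874 in the second, a difference of 0.050 (p = 0.109 in the authors' deposited table). Both forms of each choice were therefore present in every library.

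**Figure D5:**
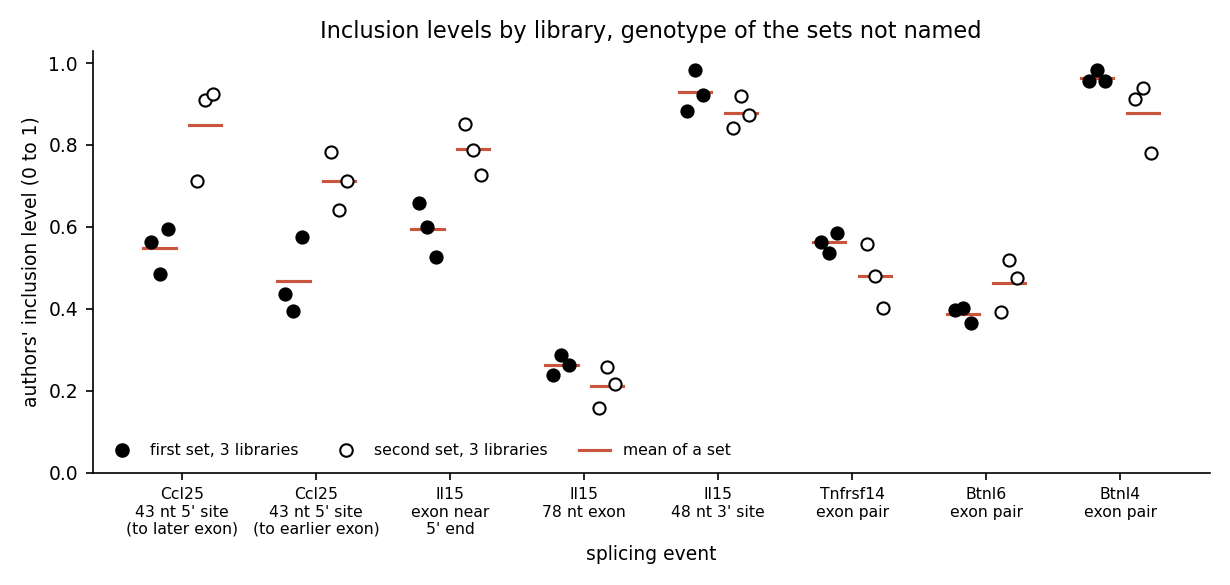
The authors' inclusion level in each library for 8 events of Ccl25, Il15, Tnfrsf14, Btnl6 and Btnl4, with the first set of 3 libraries in black, the second set in white and a bar at the mean of each set. The sets stand apart for both Ccl25 events, the Il15 exon near the 5′ end and the Btnl4 pair, and they overlap for the other 4.

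In the remaining genes no event reached an FDR below 0.05. For Tnfrsf14 the event with the smallest p was an untranslated exon of 90 nt (154927428 to 154927517) that was included in 1.74% of reads, with a difference of 0.013 (p = 0.0317, FDR = 0.394 in the authors' deposited table). In a Tnfrsf14 pair of coding exons of 109 and 126 nt the share of the first was 0.564, 0.536 and 0.586 in the first set and 0.557, 0.480 and 0.401 in the second, a difference of 0.083 (p = 0.0409, FDR = 0.370 in the authors' deposited table). As skipped exons, each with the other as a neighbour, they were included in 99.8% and 99.4% of reads. The middle share thus does not show a choice between them. For Il18 the event with the smallest p was a pair of exons of 12 and 132 nt, with a difference of 0.021 (p = 0.0877 in the authors' deposited table), at a mean of 831 reads per library. As skipped exons, both were included in 99.9% of reads. Ccl28 had a single event, its coding exon 2 of 127 nt, which was included in 99.7% of reads with a difference of 0.001. For Il7, 1 of 3 events had enough reads, an exon of 116 nt known from a non-coding transcript and included in 5.62% of reads, with a difference of 0.021 (p = 0.468 in the authors' deposited table).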

How the data were processed

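RNA from 6 libraries was sequenced with a stranded kit. The submitters' processing notes name mm10 and, for the reads, STAR 2.6.1d, Trimmomatic 0.38 and bcl2fastq 2.20, together with Cuffdiff and Cufflinks. The version of the splicing tool is not given in the sources used here. The authors deposited 1 FPKM value per gene and group, with a log2 fold change, a p-value and a q-value, and depth cannot be read from FPKM. The q-values equal Benjamini-Hochberg adjustment over tested genes to within 5.01e-07. The splicing tables follow the MATS layout, per the labels, and hold reads, inclusion levels, a p-value, an FDR and an inclusion level difference, treated here as a score, all made by the authors before deposition. Skipped exon reads differed 1.23-fold between the deepest and shallowest library, and no 2 libraries were identical.

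Log2 ratios used a pseudocount of 1 FPKM, which understates changes of low genes. Nothing in the labels says that each library came from a separate mouse, so p-values measure the spread between these libraries. The genes and lists were chosen with earlier results of these data known. The rule for naming took every one of the chosen genes, Ptbp1, list genes with an unadjusted p or q under the threshold, up to 3 further genes of each list by level, and each chosen gene's event of smallest p. Groups came from sample titles. Exons and sequences came from GENCODE M21 (mm10), whose identifiers matched for all 10 genes. The calling rules were tested on simulated data, for genes with changes far larger than those listed for the 10. That test does not bear on changes as small as theirs. Python 3.11.15, numpy 2.4.6, pandas 2.3.3, Biopython 1.88 and matplotlib 3.10.9 were used.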

Additional observations from a re-analysis of the deposited data

How the results depend on the processing

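At q < 0.1 and with at least 1 FPKM, the number of the 10 genes called remained 0. At an unadjusted p below 0.05 it was 0 while 672 of all genes passed, and at an unadjusted p below 0.1, chosen after the data were seen, it was 2 while 1104 of all genes passed. Directions of the 10 genes held with a pseudocount of 0.1 FPKM and, after centring on the median of all tested genes, for every gene but Il18, which became -0.0153. The median of the IL-15, IL-18 and IL-7 processing list also changed sign on centring, to -0.0100. With a pseudocount of 0.1 FPKM the stromal list's median was -0.80. For splicing, a difference of at least 0.05 called 1482 events and 1 of the 10 genes' events (Btnl4), and at least 0.2 called 313 and 0. A mean of at least 10 reads, chosen after the data were seen, called 1 of the 10 genes' events (Ccl25). A mean of 50 reads and 20 reads in every library each called 0. Each such change follows from the threshold moved. No paired analysis was possible because the gene table holds 1 value per group and the splicing tables do not tie libraries to replicate numbers. No library could be left out of the gene table. In the splicing tables each of the 6 libraries was left out in turn, a step chosen after the data were seen, for the 11 events with a difference of at least 0.05 in size and either enough reads or an FDR below 0.05, with no test refitted. The direction held in 10, and a mutually exclusive pair of Il15 exons ranged from -0.142 to 0.0135. The Btnl4 pair ranged from 0.040 to 0.118, the Tnfrsf14 pair from 0.044 to 0.122, the Btnl6 pair from -0.109 to -0.046, the Il15 cassette exon from 0.025 to 0.075, the Il15 segment of 48 nt from 0.023 to 0.074 and the Il15 exon of 135 nt from -0.381 to -0.158.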
